A study of Mus musculus with 24 samples.

Results

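Fatty acid uptake and lipid droplet genes were followed here through 10 genes, Pparg, Cd36, Lpl, Mogat1, Cidea, Cidec, Plin2, Plin4, Pnpla2 and Pnpla3, in livers of mice treated with siRNA against Keap1. The genes were chosen by name, with earlier results of these data known. Each was read at every probe set that the platform annotation gives to that gene alone. This made 14 of the 45037 probe sets tested and 10 of the 18193 genes with a probe set of their own. A probe set is a group of short array probes against a single transcript, and its value is a log2 signal, on which a difference of 1 is a 2-fold difference.

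The mice fell into the groups siKeap1-1, siKeap1-2 and siControl, with 8 livers and 1 Affymetrix mouse genome array per mouse in each, 24 arrays in all. siKeap1-1 and siKeap1-2 are different siRNAs against the mRNA of Keap1, and siControl is a scrambled siRNA with no intended target. Mice of all groups were C57BL6/J males that entered a western diet, a high-fat diet with 6% sucrose in the drinking water, at 8 weeks of age, and received 1 mg of their siRNA per kg body weight into the tail vein once a week for 7 weeks. The study packed the siRNAs in lipid nanoparticles that reach mainly hepatocytes, and no group on normal chow and no untreated group was on the arrays. According to the methods each group held fed and fasted mice in equal number, but the labels do not give the feeding state of an array, so it could not enter a test. The p-values set a difference of group means against the spread between mice within groups, and that spread takes in fed and fasted mice. The 8 arrays per group set how precise the values can be.

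Hepatocytes take up fatty acids from the blood partly through CD36 and partly after lipases such as lipoprotein lipase have cut them from circulating triglycerides. The fatty acids are joined to glycerol again and stored in lipid droplets, whose surface carries perilipins and CIDE proteins and which lipases of the patatin family break down. PPARgamma, a nuclear receptor that is low in healthy liver and rises in steatosis, is known to switch on many of these genes, among them Cd36, Mogat1, Cidea and Cidec.

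Keap1, the protein that holds the transcription factor Nrf2 at a low level, checked the labels. Its brighter probe set read 7.21 to 7.93 with siKeap1-1, 8.03 to 8.59 with siKeap1-2 and 9.33 to 10.03 with siControl, with no overlap between any of the groups (log2 fold changes -2.13 and -1.36 against siControl, exact permutation p = 0.000155 each, two-sided, the smallest that 8 against 8 arrays can give). Nqo1, a standard Nrf2 target, was higher by 2.22 and 1.91. Of 7 hepatocyte markers measured, 0 were called with siKeap1-1 and 0 with siKeap1-2 by limma, beside 9.49% and 6.6% of all genes. At an unadjusted limma p under 0.05 there were 3 and 2, beside 24.5% and 21.9% of all genes. In a list of this size these counts are not read as a result. The mean log2 level of the markers lay at 13.90 to 14.05 with siKeap1-1 and 13.88 to 14.12 with siKeap1-2. With siControl it lay at 14.06 to 14.16, with no overlap between siKeap1-1 and siControl. Tat, an amino acid enzyme, had log2 fold changes of -0.52 and -0.42, and Cyp3a11, a drug-metabolizing enzyme, -0.38 and -0.32. The other markers moved less, with -0.11 and -0.08 for Cps1, -0.04 and -0.01 for Apoa1, an apolipoprotein, and -0.02 and -0.02 for Alb. Hnf4a had -0.005 and -0.013, and Ttr 0.002 and 0.008. The part of these values in those of the 10 genes was not tested. A control probe set for 18S ribosomal RNA also differed between the groups. It was higher by 1.23 with siKeap1-1 and by 1.18 with siKeap1-2 than with siControl (exact permutation p = 0.00435 and 0.00155, two-sided). Within siControl it lay between 10.34 and 10.77 on replicates 1 to 3 and between 8.86 and 9.54 on replicates 4 to 8. Within siKeap1-1 the split ran the other way, with 10.17 to 10.44 on replicates 1 to 3 and 11.17 to 11.43 on replicates 4 to 8. On replicates 1 to 3 these groups thus overlapped. siKeap1-2 lay between 10.45 and 11.12 on all its arrays.

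Promoters from RefSeq (build GRCm38.p6) were found for 8 of the 10 genes, at 11 start sites. Those of Cd36, Mogat1 and Pnpla3 are shown because the first 2 genes were higher and the third was lower with both siRNAs. Each line gives the 250 bases before the start site, 5′ to 3′ on the strand of the gene, Cd36 at chr5:17835897-17836146 (minus strand), Mogat1 at chr1:78510810-78511059 (plus strand) and Pnpla3 at chr15:84167566-84167815 (plus strand). Capitals mark matches to 8 motifs on either strand.
Cd36: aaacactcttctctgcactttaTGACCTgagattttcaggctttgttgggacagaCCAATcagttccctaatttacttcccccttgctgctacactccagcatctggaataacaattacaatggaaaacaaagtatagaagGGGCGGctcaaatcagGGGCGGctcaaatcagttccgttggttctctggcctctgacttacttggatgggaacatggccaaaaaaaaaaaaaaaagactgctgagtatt
Mogat1: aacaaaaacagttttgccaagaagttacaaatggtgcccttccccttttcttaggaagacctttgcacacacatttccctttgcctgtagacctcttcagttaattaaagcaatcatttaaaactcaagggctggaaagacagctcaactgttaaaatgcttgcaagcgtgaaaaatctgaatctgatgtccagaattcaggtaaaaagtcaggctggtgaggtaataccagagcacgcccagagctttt
Pnpla3: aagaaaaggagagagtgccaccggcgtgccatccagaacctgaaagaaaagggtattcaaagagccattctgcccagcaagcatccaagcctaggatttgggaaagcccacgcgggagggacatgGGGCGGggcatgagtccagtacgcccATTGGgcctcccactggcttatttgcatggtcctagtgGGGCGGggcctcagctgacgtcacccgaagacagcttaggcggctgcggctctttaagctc
The motifs were the core of the antioxidant response element that Nrf2 binds (TGACNNNGC, in 10.2% of 32851 promoters of this length), the nuclear receptor core site AGGTCA (14.0%), its direct repeat as PPARs bind it (AGGTCANAGGTCA, 0.0335%), a sterol response element (TCACNCCAC, 1.05%), the E-box CACGTG (6.02%), the CCAAT box (CCAAT, 33.8%), the TATA box (TATAAA, 12.4%) and the GC box (GGGCGG, 32.7%), of which the direct repeat contains the core site. Cd36 had 1 core site on the reverse strand, 228 bases before the start site, 1 CCAAT box and 2 GC boxes. Mogat1 had no match in this window. Pnpla3 had 1 CCAAT box, read on the reverse strand, and 2 GC boxes. The antioxidant response element core had no match in any of these printed windows. It was matched at a Pparg start site not shown (chr6:115362099-115362348), 233 bases before the start on the reverse strand. Nuclear receptor core sites also lay 28 and 9 bases before Pparg start sites and 218 bases before that of Plin2, likewise not shown. These are matches of letters and say nothing on binding in these livers.

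Against siControl, 9 of the 14 probe sets were called with siKeap1-1 (limma, adjusted p under 0.05), 8 higher and 1 lower, where 8.99% of all probe sets were called (4.51% higher, 4.48% lower). With siKeap1-2, 7 were called, 6 higher and 1 lower, beside 6.1% of all probe sets (3.15% higher, 2.96% lower). Counted by gene at the brightest probe set, Pparg, Cd36, Lpl, Mogat1 and Cidea were higher and Pnpla3 lower with siKeap1-1, 6 of 10 genes beside 9.49% of all genes (4.82% higher, 4.67% lower). Cd36, Lpl and Mogat1 were higher and Pnpla3 lower with siKeap1-2, 4 of 10 genes beside 6.6% of all genes (2.85% higher, 3.75% lower). The median log2 fold change of the 10 genes was 0.53 with siKeap1-1 and 0.38 with siKeap1-2, and that of all genes 0.01 and -0.01. By a fold change above 2 with an unadjusted limma p below 0.01, thresholds that the study used with a different test, 7 probe sets passed with each siRNA, beside 0.617% and 0.557% of all probe sets. Both comparisons use the same siControl arrays and are therefore not independent. As the genes were chosen with earlier results of these data known, the counts beside all genes are a description and no test of an excess. By role, the uptake genes Cd36 and Lpl and the glyceride synthesis gene Mogat1 were higher with both siRNAs. The droplet genes differed in sign. The perilipin genes Plin2 and Plin4 had negative values that did not pass the test. The CIDE genes Cidea and Cidec had positive values, of which only that of Cidea with siKeap1-1 passed it.

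**Figure D1:**
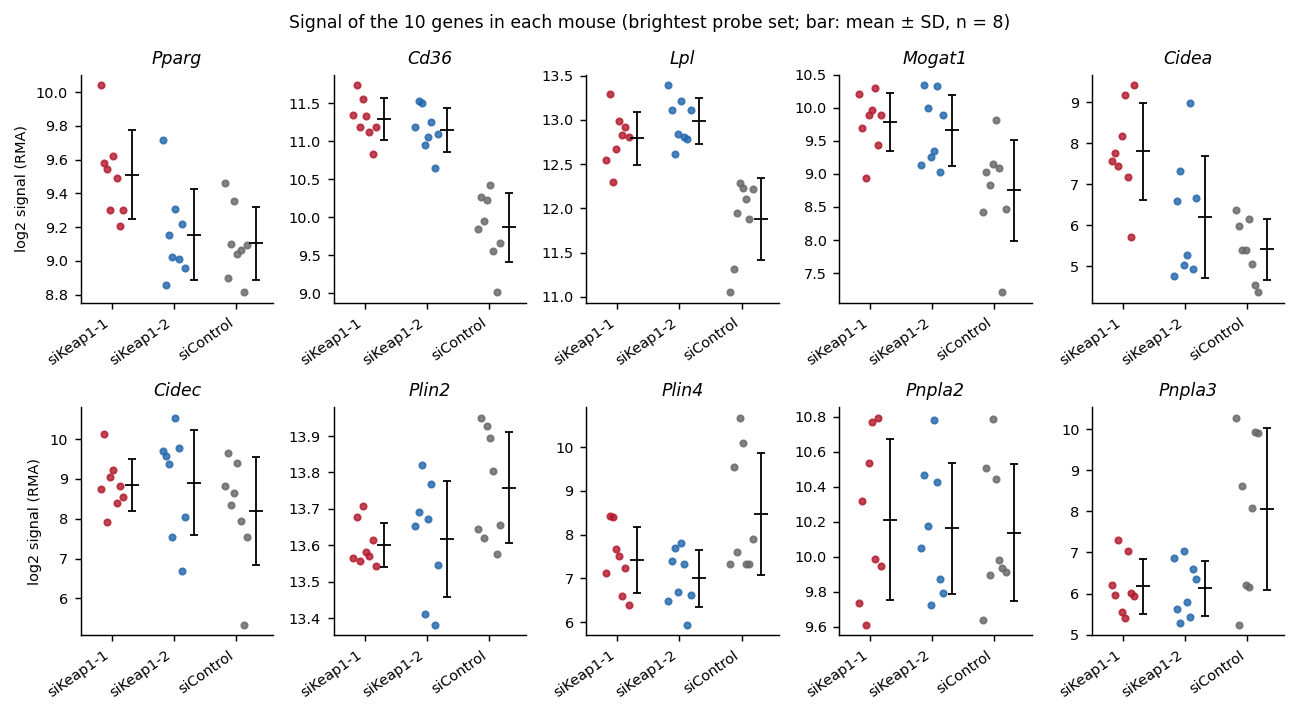
Log2 signal of the 10 genes at the brightest probe set in each mouse, with siKeap1-1, siKeap1-2 and siControl from left to right. Each point is a mouse, and bars give the mean ± SD (n = 8). Cd36 and Lpl separate both siKeap1 groups from siControl, whereas the siControl mice of Pnpla3 spread from 5.23 to 10.28.

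**Figure D2:**
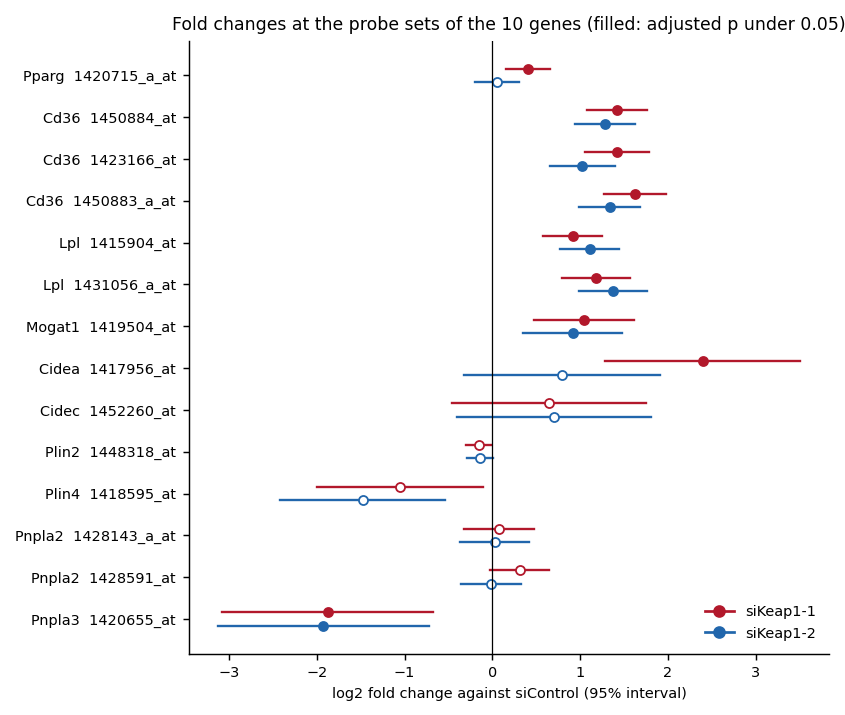
Log2 fold change against siControl at each of the 14 probe sets, with the 95% interval of the fit. Filled points have an adjusted p under 0.05. The 3 probe sets of Cd36 and the 2 of Lpl lie right of 0 with both siRNAs, and Pnpla3 lies left of 0 with both.

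Pparg, the gene of the receptor PPARgamma, was measured by 1 probe set. Its lowest, median and highest log2 signals were 9.21, 9.52 and 10.04 with siKeap1-1, 8.86, 9.09 and 9.71 with siKeap1-2, and 8.81, 9.08 and 9.46 with siControl. All 3 groups overlapped, and replicate 1 was the highest array of each of them. The log2 fold change was 0.41 with siKeap1-1 (SE 0.12, limma adjusted p = 0.0326) and 0.05 with siKeap1-2 (95% interval -0.20 to 0.30, adjusted p = 0.856). The difference was thus small, a fold change of 1.33. The call with siKeap1-1 was lost without siKeap1-1 replicate 1 or 5 or without siControl replicate 2, 5, 6, 7 or 8 (log2 fold changes 0.33 to 0.41, limma adjusted p 0.0526 to 0.0699).

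Cd36 encodes the scavenger receptor that carries long-chain fatty acids into cells, and its 3 probe sets moved together. At the brightest of them (1450884_at) the lowest, median and highest signals were 10.83, 11.26 and 11.74 with siKeap1-1, 10.65, 11.14 and 11.53 with siKeap1-2, and 9.01, 9.90 and 10.42 with siControl. Every siKeap1 array was above every siControl array. This gave log2 fold changes of 1.42 (SE 0.17, limma adjusted p = 3.16e-06) with siKeap1-1 and 1.29 (SE 0.17, adjusted p = 2.47e-05) with siKeap1-2, or 2.68-fold and 2.44-fold. Groups that do not overlap were seen for 1.71% of all genes with siKeap1-1 and for 1.41% with siKeap1-2. At 1450883_a_at the log2 fold changes were 1.63 and 1.33 with no overlap. Signals there were 10.50 to 11.21 in siKeap1-1, 10.14 to 10.90 in siKeap1-2 and 8.44 to 9.80 in siControl. At 1423166_at the log2 fold changes were 1.42 and 1.02. There a single siKeap1 array, siKeap1-2 replicate 4 at 10.14, lay within the siControl range of 9.30 to 10.46. Among the siControl mice, replicates 2, 4 and 5 had the highest Cd36 signals (10.27, 10.22 and 10.42 at 1450884_at) and replicate 7 the lowest (9.01).

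Lpl encodes lipoprotein lipase, which frees fatty acids from circulating triglycerides and is made mostly outside the adult liver. Its brightest probe set (1415904_at) had lowest, median and highest signals of 12.30, 12.82 and 13.29 with siKeap1-1, 12.62, 12.98 and 13.40 with siKeap1-2, and 11.05, 12.03 and 12.29 with siControl. The siKeap1 arrays were again all above the siControl arrays, though siKeap1-1 replicate 3 (12.30) and siControl replicate 4 (12.29) nearly met. The log2 fold changes were 0.91 (SE 0.17, limma adjusted p = 0.000816) with siKeap1-1 and 1.11 (SE 0.17, adjusted p = 0.000177) with siKeap1-2. The other probe set, 1431056_a_at, gave 1.18 and 1.37 and also no overlap. Replicates 1 and 2 of siControl were the lowest arrays at both probe sets (11.05 and 11.31 at 1415904_at), and they are among the 3 siControl arrays with high 18S signal. Against siControl replicates 1 to 3 or 4 to 8 alone, Lpl kept its call with both siRNAs.

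Mogat1 encodes a monoacylglycerol acyltransferase, an enzyme that joins a fatty acid to monoacylglycerol on the way to triglyceride. Its lowest, median and highest signals were 8.94, 9.89 and 10.30 with siKeap1-1, 9.03, 9.61 and 10.35 with siKeap1-2, and 7.21, 8.93 and 9.81 with siControl. The groups overlapped, and 4 of the 8 siControl arrays lay below all 16 siKeap1 arrays. The log2 fold change was 1.04 with siKeap1-1 (SE 0.28, limma adjusted p = 0.0175) and 0.91 with siKeap1-2 (SE 0.28, adjusted p = 0.0481). The second call was marginal. It was lost without any 1 of 17 arrays (siKeap1-1 replicates 1, 2 and 4 to 8, siKeap1-2 replicates 2, 3, 5, 6 and 8, and siControl replicates 1, 3, 6, 7 and 8), with log2 fold changes of 0.69 to 0.96 and limma adjusted p of 0.0504 to 0.106.

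Cidea encodes a CIDE protein that lets lipid droplets fuse and grow, known best from brown fat and from fatty liver. Its lowest, median and highest signals were 5.70, 7.67 and 9.43 with siKeap1-1, 4.77, 5.95 and 8.99 with siKeap1-2, and 4.37, 5.40 and 6.38 with siControl. With siKeap1-1, 7 of 8 arrays were above every siControl array and only replicate 7 was not, whereas in siKeap1-2 replicate 6 (8.99), replicate 3 (7.33), replicate 8 (6.67) and replicate 2 (6.61) stood above siControl and the other 4 lay between 4.77 and 5.29. The log2 fold change was 2.39 with siKeap1-1 (SE 0.54, limma adjusted p = 0.00586). With siKeap1-2 it was 0.79 (95% interval -0.32 to 1.91, adjusted p = 0.441). The siKeap1-1 call was lost with the 18S control probe sets as a covariate (1.49, limma adjusted p = 0.399), with a single 18S probe set as a covariate (1.78, adjusted p = 0.228) and against siControl replicates 1 to 3 alone (1.89, adjusted p = 0.204). As it is not known which dim signals lie above background, no fold is given for Cidea.

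Cidec encodes the related protein that enlarges droplets in fat cells, and it did not pass the test. Its lowest, median and highest signals were 7.91, 8.79 and 10.12 with siKeap1-1, 6.69, 9.48 and 10.54 with siKeap1-2, and 5.33, 8.49 and 9.64 with siControl. The siControl range was widened by replicate 7 (5.33), the same array that was lowest for Cd36, Mogat1 and Pparg. The log2 fold changes were 0.64 (95% interval -0.46 to 1.75, limma adjusted p = 0.52) and 0.70 (-0.40 to 1.80, adjusted p = 0.502), so rises as large as that of Cd36 were within both intervals.

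Plin2 encodes the perilipin that coats most droplets of hepatocytes. It varied little, with lowest, median and highest signals of 13.54, 13.58 and 13.71 with siKeap1-1, 13.38, 13.66 and 13.82 with siKeap1-2, and 13.58, 13.73 and 13.95 with siControl. The log2 fold changes were -0.16 (95% interval -0.30 to -0.01, limma adjusted p = 0.174) and -0.14 (-0.29 to 0.00, adjusted p = 0.257), and both intervals leave out any rise past 0.01. The 3 highest siControl arrays, replicates 2, 4 and 5, were above all 16 siKeap1 arrays.

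Plin4 encodes another perilipin, known from fat cells. Its lowest, median and highest signals were 6.40, 7.38 and 8.42 with siKeap1-1, 5.93, 7.01 and 7.81 with siKeap1-2, and 7.33, 7.75 and 10.67 with siControl. The siControl mice fell apart, with replicates 2, 4 and 5 at 9.56, 10.67 and 10.09 and the other 5 between 7.33 and 7.89. No siKeap1 array exceeded 8.42. The log2 fold change was -1.05 with siKeap1-1 (SE 0.46, limma adjusted p = 0.16) and -1.48 with siKeap1-2 (SE 0.46, adjusted p = 0.054), neither past the threshold. Without siControl replicate 1, 3, 6 or 7 the siKeap1-2 value passed it (-1.64 to -1.60, limma adjusted p 0.033 to 0.0457).

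Pnpla2 encodes adipose triglyceride lipase, which starts the breakdown of droplet triglyceride. At its brighter probe set (1428143_a_at) the lowest, median and highest signals were 9.61, 10.15 and 10.79 with siKeap1-1, 9.73, 10.11 and 10.78 with siKeap1-2, and 9.64, 9.96 and 10.79 with siControl. The 3 ranges were nearly the same. The log2 fold changes were 0.07 (95% interval -0.32 to 0.47) with siKeap1-1 and 0.02 (-0.37 to 0.42) with siKeap1-2. The dimmer probe set gave 0.31 (limma adjusted p = 0.266) and -0.02 (adjusted p = 0.973).

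Pnpla3, a droplet protein of the same family whose gene is a target of SREBP-1c in mouse liver, was the only one of the 10 genes called lower. Its lowest, median and highest signals were 5.41, 5.99 and 7.31 with siKeap1-1, 5.29, 6.07 and 7.04 with siKeap1-2, and 5.23, 8.35 and 10.28 with siControl. All 16 siKeap1 arrays lay at or below 7.31, while 5 of the 8 siControl arrays lay above that, from 8.09 to 10.28, and the other 3, replicates 2, 4 and 5, lay at 5.23, 6.21 and 6.16. The groups thus overlapped, and the spread differed as well, with an SD of 0.67 in siKeap1-1, 0.67 in siKeap1-2 and 1.97 in siControl (n = 8 each). The means of 6.18 with siKeap1-1 and 6.13 with siKeap1-2 were near 5.87, the median of the mean signals of all tested probe sets. As for Cidea, no fold is therefore given. The log2 fold changes were -1.87 with siKeap1-1 (SE 0.58, limma adjusted p = 0.0432) and -1.93 with siKeap1-2 (SE 0.58, adjusted p = 0.0485). The exact permutation test of the same values gave p = 0.026 and p = 0.0233 (two-sided, 12870 splits, not adjusted).

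These calls of Pnpla3 were close to the threshold. With siKeap1-1 the call was lost without any 1 of 12 arrays (siKeap1-1 replicates 1, 2, 4, 5, 7 and 8, siKeap1-2 replicate 8 and siControl replicates 1, 3, 6, 7 and 8), with log2 fold changes of -1.88 to -1.56 and limma adjusted p of 0.0505 to 0.0977. With siKeap1-2 it was lost without any 1 of 19 arrays (siKeap1-1 replicates 1, 2 and 4 to 8, siKeap1-2 replicates 1, 2, 3 and 5 to 8, and siControl replicates 1, 3, 6, 7 and 8), with values of -2.03 to -1.61 and adjusted p of 0.0517 to 0.107.

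The arrays at the ends of a group were often the same for several genes. In siControl, replicates 2, 4 and 5 held the 3 highest signals of Cd36, Plin2, Plin4 and Pnpla2 and the 3 lowest of Pnpla3. In siKeap1-2, replicates 1, 4, 7 and 8 held the 4 lowest signals of Plin2, Plin4 and Pnpla2 and the 4 highest of Pnpla3. Pparg, Lpl, Mogat1, Cidea and Cidec showed neither split. These arrays were picked by their values, so the splits are a description with no test, and whether they follow the feeding state of the mice was not tested.

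**Figure D3:**
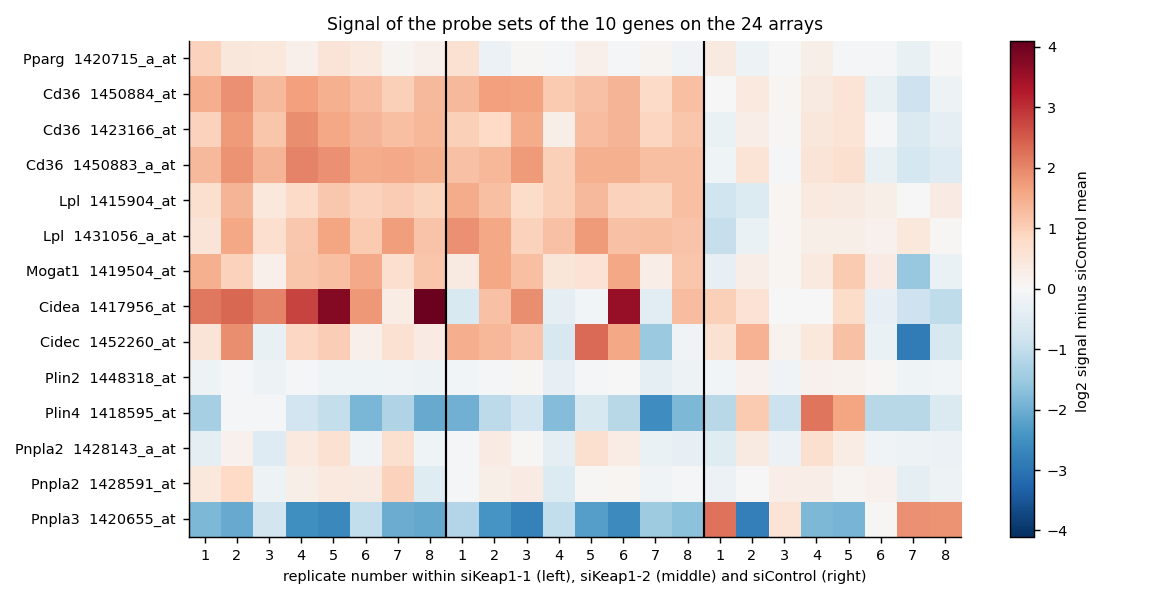
Log2 signal minus the siControl mean at the 14 probe sets (rows) on the 24 arrays (columns), with siKeap1-1 left, siKeap1-2 in the middle and siControl right, numbered by replicate. Red is above and blue below the siControl mean. Plin4 is red and Pnpla3 blue on siControl replicates 4 and 5, and Cidea is strongest on siKeap1-1 replicates 5 and 8.

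**Figure D4:**
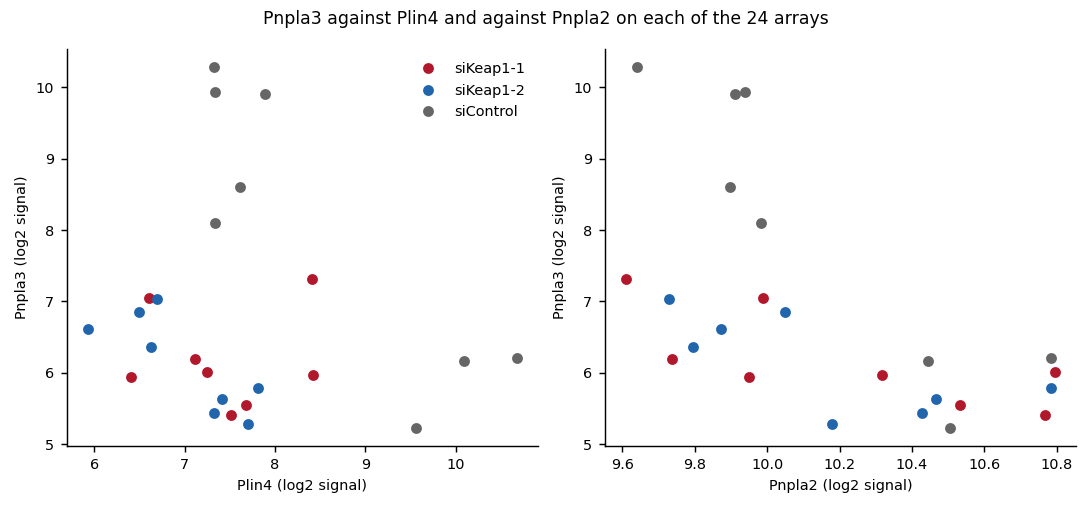
Log2 signal of Pnpla3 (vertical axis) against that of Plin4 (left panel) and Pnpla2 (right panel) on each of the 24 arrays. The 5 siControl arrays with Pnpla3 at 8.09 or more have Plin4 at 7.89 or less, and the 3 with Pnpla3 at 6.21 or less have Plin4 at 9.56 or more.

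The largest component of the differences between mice within groups, taken over probe sets outside the gene lists used here, held 16.8% of that variance. It took up 76.4% of the variance within groups of Pnpla2, 62.8% of Plin2, 59.4% of Pnpla3, 54.4% of Cidec, 47.4% of Plin4 and 42.8% of Cd36, with Pnpla3 running in the opposite direction to the others. Its share was 7.21% for Cidea, 2.59% for Pparg and 1.56% for Lpl. With this component as a covariate, 8 of the 10 genes were called with siKeap1-1 and 5 with siKeap1-2 (5264 and 3912 of all probe sets), the additional ones being Plin2 (-0.16, limma adjusted p = 0.0458) and Plin4 (-1.05, adjusted p = 0.0435) with siKeap1-1 and Plin4 (-1.48, adjusted p = 0.0075) with siKeap1-2. The component was taken from the same arrays after removal of the group means. It therefore left the fold changes as they were and mainly lowered the spread within groups. More calls follow from that largely by construction, so the additional ones are no independent support.

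The 18S signal moved with the groups, within siKeap1-1 and siControl also with the replicate number, and touched most of the calls. With the 18S control probe sets as a covariate, Cd36 and Lpl were the only 2 of the 10 genes called with either siRNA. Pnpla3 then had log2 fold changes of -0.83 with siKeap1-1 (limma adjusted p = 0.726) and -0.96 with siKeap1-2 (adjusted p = 0.805), Cidea 1.49 with siKeap1-1 (adjusted p = 0.399), Mogat1 0.89 and 0.78 (adjusted p = 0.329 and 0.604) and Pparg 0.44 with siKeap1-1 (adjusted p = 0.248). Over all probe sets the calls fell to 831 and 265 in that fit, against 4049 and 2748 without the covariate. The part of the 18S signal in these results was otherwise not tested, and as it differs between the groups it cannot be told apart from them in full.

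Between the siRNAs, siKeap1-1 against siKeap1-2, 0 of the 14 probe sets were called by limma, where 0.162% of all probe sets were called. At an unadjusted p under 0.05 there were 3, beside 9.3%, and 1 probe set, that of Cidea, passed a 2-fold change with an unadjusted p below 0.01, beside 0.0577%. Cidea was 1.60 higher with siKeap1-1 than with siKeap1-2 (95% interval 0.49 to 2.71, limma adjusted p = 0.314), Plin4 0.42 higher (-0.52 to 1.36, adjusted p = 0.833) and Pparg 0.36 higher (0.11 to 0.60, adjusted p = 0.316). The third probe set past the unadjusted threshold was 1423166_at of Cd36, 0.39 higher (0.03 to 0.76, adjusted p = 0.499). The Cidea interval is wide and leaves the size of the difference undetermined. For Cd36, Lpl, Mogat1 and Pnpla3 the differences were 0.14 (-0.20 to 0.48), -0.19 (-0.53 to 0.15), 0.13 (-0.44 to 0.70) and 0.05 (-1.15 to 1.25). A call with siKeap1-1 that was missed with siKeap1-2, as for Pparg and Cidea, was therefore not shown to be a difference between the siRNAs.

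Other genes of the pathway were counted in 5 lists of 87 genes, 78 of them measured by a probe set of their own, and again at the brightest probe set. The lists too were chosen with earlier results of these data known, so their counts are a description. With siKeap1-1, 15 of the 78 were called, 5 higher and 10 lower, which is 19.2% beside 9.49% of all genes (4.82% higher, 4.67% lower). With siKeap1-2, 15 were called, 6 higher and 9 lower, 19.2% beside 6.6% of all genes (2.85% higher, 3.75% lower). With the 18S control probe sets as a covariate these counts were 4 and 2. The shares of all genes without the covariate stand beside the counts of each list below as well.

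Among 19 genes of fatty acid uptake and activation, 1 was higher and 3 were lower with siKeap1-1, and 1 was higher and 4 were lower with siKeap1-2. Acsl3, an acyl-CoA synthetase of lipid droplets, fell by 1.21 with siKeap1-1 and by 0.98 with siKeap1-2 (limma adjusted p = 0.000327 and 0.00404). Fabp5, a fatty acid binding protein, fell by 0.96 and by 0.65, and Lipg, which encodes endothelial lipase, fell by 0.93 and by 0.89. Lmf1, the factor that lipoprotein lipase needs to mature, rose by 0.45 and 0.28 (adjusted p = 0.000927 and 0.0441). Acsl4, named after its values were seen, fell by 0.39 with siKeap1-2 (adjusted p = 0.042) and had -0.16 with siKeap1-1 (adjusted p = 0.458).

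Among 14 genes of glyceride synthesis, 2 were higher and 1 was lower with siKeap1-1, and 3 were higher and 1 was lower with siKeap1-2. Mogat2, the second monoacylglycerol acyltransferase gene, rose by 0.68 and 0.84 (limma adjusted p = 0.0409 and 0.0171). Gpat3, which encodes an acyltransferase of the first step, rose by 0.89 with siKeap1-2 (adjusted p = 0.0166) and had 0.63 with siKeap1-1 (adjusted p = 0.0784). Of the lipins, which make diacylglycerol, Lpin3 rose by 0.40 and 0.48 and Lpin2 fell by 0.31 and by 0.29.

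Among 13 genes of the droplet coat, droplet growth and fusion, 1 was higher and 1 lower with siKeap1-1, and 1 was higher and 0 were lower with siKeap1-2. Fitm1, whose product helps to form droplets, rose by 0.81 and 0.45 (limma adjusted p = 0.000434 and 0.0479). Tm6sf2, which acts in lipoprotein loading, fell by 0.44 with siKeap1-1 and had -0.21 with siKeap1-2 (adjusted p = 0.35). Among 14 lipolysis genes, 1 was higher and 1 lower with siKeap1-1, and 1 was higher and 2 were lower with siKeap1-2. Ces1g, a carboxylesterase of the hepatocyte, rose by 1.23 and 1.04 (adjusted p = 1.59e-08 and 4.43e-07). Of the phospholipases of the patatin family, Pnpla7 fell by 0.32 with siKeap1-1 and had -0.20 with siKeap1-2 (adjusted p = 0.152). Pnpla6 and Pnpla8 fell by 0.35 and by 0.29 with siKeap1-2. With siKeap1-1 they had -0.28 and -0.06 (adjusted p = 0.0537 and 0.569).

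Of 18 receptors and regulators known to act on the 10 genes, 0 were higher with siKeap1-1 or siKeap1-2, and 4 and 2 were lower (limma, with 8 and 5 at an unadjusted p under 0.05 in either direction). Of all genes, 4.82% and 2.85% were higher and 4.67% and 3.75% lower. In a list of this size the count of 0 higher is not read as a result. Nfe2l2, which encodes Nrf2, fell by 0.63 and by 0.49 (adjusted p = 4.14e-05 and 0.00117). Mlxipl, the gene of the carbohydrate sensor ChREBP, fell by 0.50 with siKeap1-1 and had -0.37 with siKeap1-2 (adjusted p = 0.00527 and 0.0504). Ppargc1a, a coactivator of PPARs, fell by 0.56 with siKeap1-1 and had -0.36 with siKeap1-2 (limma adjusted p = 0.113). Nr1i2, the gene of the xenobiotic receptor PXR, fell by 0.32 with siKeap1-2 and had -0.21 with siKeap1-1 (adjusted p = 0.156). Cebpa, named after its values were seen, fell by 0.16 with siKeap1-1 (adjusted p = 0.0313) and had -0.03 with siKeap1-2 (adjusted p = 0.791).

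**Figure D5:**
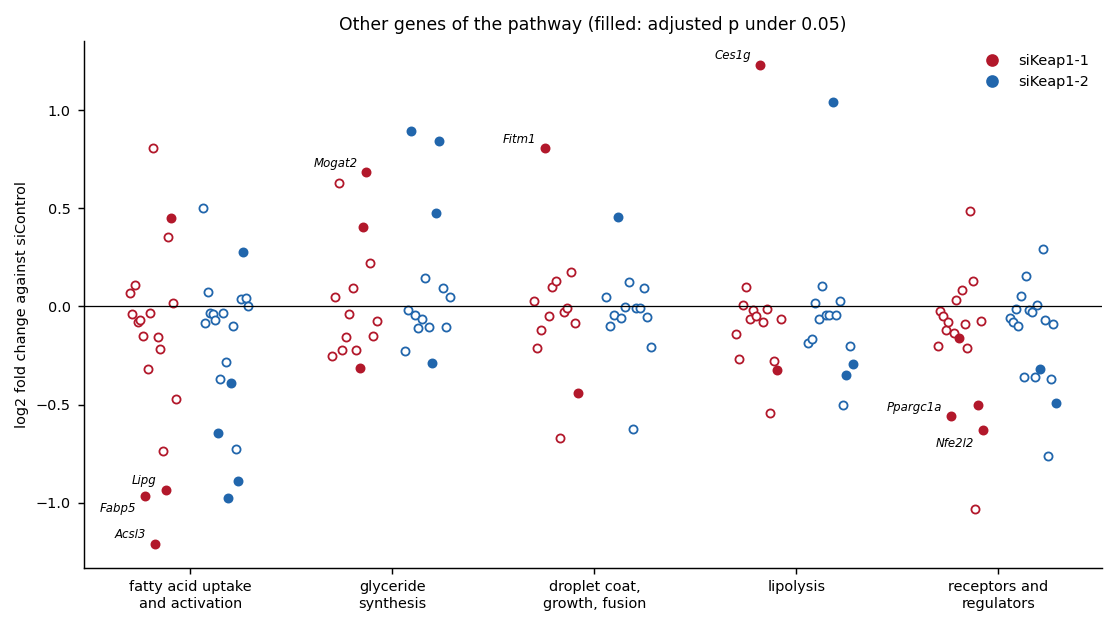
The 78 measured genes of the 5 pathway lists (horizontal axis) by their log2 fold change against siControl (vertical axis), with siKeap1-1 left and siKeap1-2 right in each list. Filled points have an adjusted p under 0.05, and the named genes are the largest called changes with siKeap1-1. Ces1g is the highest point of the lipolysis list and Acsl3 the lowest point of the uptake list.

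Whole liver RNA holds several cell types, and fewer cells of a type cannot be told apart from less RNA per cell. Cidea, Cidec, Plin4, Lpl and Pparg are strongly expressed in fat cells, so adipocyte markers were read beside them. Over all genes, 9.49% were called with siKeap1-1 and 6.6% with siKeap1-2, and counts in a list of 6 markers are not read as a result. Of 6 markers measured, 1 was called with siKeap1-1 (Retn, 0.33 higher, limma adjusted p = 0.0484) and 0 with siKeap1-2 (1 at an unadjusted p under 0.05). Their mean log2 level lay between 5.60 and 6.04 with siKeap1-1, 5.65 and 5.91 with siKeap1-2 and 5.58 and 6.00 with siControl. Adipoq and Lep, genes of the hormones that define fat cells, averaged 3.65 and 3.34 with siKeap1-1, 3.58 and 3.40 with siKeap1-2 and 3.52 and 3.28 with siControl. Fabp4, which macrophages and endothelial cells also express, averaged 10.89 with siKeap1-1, 10.66 with siKeap1-2 and 10.72 with siControl, and Lipe, a lipase, averaged 7.16 with siKeap1-1, 7.12 with siKeap1-2 and 7.30 with siControl. The part of fat cells in the values of the 10 genes was not tested.

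Macrophages also express Cd36, Lpl and Pparg, and some of their markers moved. Over all genes, 9.49% were called with siKeap1-1 (4.82% higher, 4.67% lower) and 6.6% with siKeap1-2 (2.85% higher, 3.75% lower). Of 8 Kupffer cell and macrophage markers, 0 were higher and 2 lower with siKeap1-1, and 2 were higher and 1 lower with siKeap1-2. Timd4, a marker of resident Kupffer cells, fell by 1.52 and by 1.16 (limma adjusted p = 0.0015 and 0.0183). Vsig4 fell by 0.60 with siKeap1-1 and had -0.41 with siKeap1-2 (adjusted p = 0.128). Marco and Trem2 rose by 1.49 and 0.50 with siKeap1-2 and had 0.69 and 0.38 with siKeap1-1 (limma adjusted p = 0.251 and 0.0559). The mean log2 level of the list lay between 8.61 and 9.68 with siKeap1-1, 8.84 and 10.03 with siKeap1-2 and 8.96 and 9.89 with siControl, and its part in the Cd36 and Lpl values was not tested. Of 6 endothelial markers, 0 were called with siKeap1-1 (1 at an unadjusted p under 0.05) and 1 with siKeap1-2 (Cdh5, lower by 0.32). Of 6 stellate cell markers 0 were called with either siRNA (1 and 0 at an unadjusted p under 0.05), and likewise 0 of 4 skeletal muscle markers (0 and 0).

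The genes whose brightest probe set varied most like that of Pparg, Cd36, Cidea or Pnpla3 were taken by Pearson correlation over the 24 arrays, among 18192 other genes. These points share the array, the group and the feeding state, so the values are a description. Pparg was followed most closely by Ckap2 (r = 0.779), Cenpe (0.736) and Mrps30 (0.731), the first 2 being genes of cell division. Cd36 was followed by 9130409I23Rik (0.964), Osbpl3 (0.936) and Slc18a1 (0.923). With the group means removed these were 0.815, 0.747 and 0.722. Cidea was followed by Amy1 (0.833), Slc25a16 (0.823) and Omd (0.814), and Pnpla3 by Luzp1 (0.871), Pnpla5 (0.869) and Mlxipl (0.862). For Pnpla3 the values with the group means removed were close to these, at 0.868, 0.830 and 0.803.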

How the data were processed

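Liver RNA of 24 mice was measured on 1 array each, in 3 groups of 8 named by the labels. The authors deposited log2 values from RMA, a method that subtracts background, gives all arrays 1 distribution and summarizes the probes of a set; no version is given. RMA shrinks differences of dim probe sets, and the common distribution assumes that most genes do not move. The platform annotation gave 1 gene to 34945 of 45037 probe sets; the 64 manufacturer controls were not tested, and dim probe sets were kept. Group means were compared by a moderated linear model of all 3 groups (limma 3.58.1, R 4.3.3) with Benjamini-Hochberg adjustment over all probe sets, and a probe set was called at an adjusted p under 0.05. Single values were also tested by exact permutation of 12870 splits. Promoters were searched with Python 3.11.15. The genes and lists were chosen with earlier results of these data known. Named are the 10 genes, up to 4 called genes of each list with the largest change, and the 3 genes most like Pparg, Cd36, Cidea and Pnpla3. Keap1, Nqo1 and cell type markers are named as checks. Alternatives changed the normalization, moderation, filter, covariates, controls and arrays.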

Additional observations from a re-analysis of the deposited data

How the results depend on the processing

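Cd36 and Lpl kept their calls with both siRNAs under every alternative and without any 1 of the 24 arrays. The other calls of the 10 genes rest on more settings. The counts of genes called, 6 with siKeap1-1 and 4 with siKeap1-2, became 2 and 2 with the 18S controls as a covariate, 2 and 2 with a single 18S probe set as a covariate (chosen after seeing the data), and 2 and 2 against siControl replicates 1 to 3 alone. The count for siKeap1-2 was also 2 with trended and robust moderation, with the unmoderated test and with only the 2 groups compared. It was 4 for siKeap1-1 by the 2-fold rule (unadjusted p below 0.01), a rule that called 1 gene and 1 probe set between the siRNAs. Leaving out 1 array gave 4 to 6 genes with siKeap1-1 and 2 to 4 with siKeap1-2. The probe set counts, 9 and 7, were 5 and 4 with either 18S covariate, and 5 with siKeap1-1 against siControl replicates 1 to 3. Detection calls were not used, so which dim signals lie above background is not known; without probe sets under a mean log2 signal of 6, 6 and 5 genes were called. Apart from these smaller control sets the causes were not tested.

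Signs turned only for values that had not passed the test. With the 18S controls as a covariate the log2 fold changes were -0.17 for Cidec and -0.29 for Pnpla2 with siKeap1-1, and -0.042 for Cidea, -0.051 for Cidec and -0.31 for Pnpla2 with siKeap1-2. With the single 18S probe set they were -0.11 and -0.16 for Pnpla2. With siControl replicates 1 to 3 they were -0.086 and -0.029 for Cidec, and with replicates 4 to 8 -0.050 for Pnpla2 with siKeap1-2. Leaving out 1 array gave -0.0083 to 0.17 and -0.064 to 0.12 for Pnpla2, -0.027 to 0.10 for Pparg with siKeap1-2 and, between the siRNAs, -0.37 to 0.18 for Cidec, -0.050 to 0.013 for Plin2, -0.033 to 0.14 for Pnpla2 and -0.11 to 0.18 for Pnpla3. Same-numbered arrays of siKeap1-1 and siControl had residual correlations of -0.11 to 0.14, those of siKeap1-2 and siControl -0.17 to 0.28, and those of siKeap1-1 and siKeap1-2 -0.11 to 0.25. Such values cannot settle whether the numbers pair the mice, and the main fit did not pair them. The replicate block gave 6 genes and 9 probe sets with siKeap1-1, 5 and 8 with siKeap1-2, and 0 between the siRNAs.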
